A study of Zea mays with 96 samples.

Results

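The *nkd2* single mutant at 8 days after pollination (DAP) was compared with WT across all genes. The genotype and age in the sample labels gave 4 *nkd2* libraries and 4 WT libraries, 8 of the 96 libraries of the series. The series holds WT and 7 mutant combinations of *nkd1*, *nkd2*, and *o2* at 8, 12, and 16 DAP. All plants were in the W22 inbred background of maize, were grown and self-pollinated in the field per the labels, and came from the progeny of a selfed triple heterozygote. The *nkd2* mutant carried the *nkd2-null* allele on both chromosomes and the normal alleles of *nkd1* and *o2*, and WT carried the normal alleles of all 3 genes. Comparisons with other genotypes used *nkd1* (the *nkd1-Ds* allele), *o2*, *nkd2 o2*, and *nkd1 nkd2*, each homozygous. For each library, 3 endosperms of a single ear were pooled, and the 4 libraries of a group came from independent ears. P-values of the gene tests thus measure the spread between ears within genotypes. That spread was estimated over all genotypes fitted together, not over *nkd2* and WT alone, unless only the 8 libraries were fitted. Only 1 *nkd2* allele was used, and W22 reads were mapped to the B73 genome, that of a different inbred.

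NKD1 and NKD2 are duplicate zinc finger transcription factors of the INDETERMINATE DOMAIN (IDD) family that are needed for aleurone identity and for normal filling of the maize endosperm. O2 is a bZIP factor that activates genes of zein storage proteins and of amino acid and carbon metabolism in the starchy endosperm. In the days sampled here, the endosperm passes from cell division and differentiation to the storage of starch and protein.

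The *nkd2* libraries held 45901362 to 58191881 reads counted on genes and the WT libraries 36783468 to 52702594, which were 84.4% to 86.4% and 85.1% to 86.4% of all counts in their tables. Levels are given as CPM, the counts of a gene scaled to the size of its library after TMM normalization, and log2FC is the fitted log2 fold change of *nkd2* over WT. DEGs were called with edgeR's quasi-likelihood method at an adjusted P under 0.05 (Benjamini-Hochberg, 25467 genes tested of 46430) and an absolute log2FC above 1. All values of P given as adjusted come from this test. Libraries of a group were not alike. Among the *nkd2* libraries, replicate 2 lay at a distance of 148.9 from the mean of the other three on log2 CPM over all genes tested, and the others lay at 104.4 to 109.3. Among the WT libraries, replicate 4 lay farthest, at 163.1 against 90.08 to 122.9. Markers of other cell types were few in the gene table used. No gene matched the lists of aleurone or embryo surrounding region markers, and 1 matched that of the basal transfer layer. Both photosynthesis genes tested, which mark green maternal tissue, summed to at most 0.742 CPM in WT and 0.251 CPM in *nkd2*. The starchy endosperm lists were present in every library, with summed zein CPM of 152.7 to 433.4 in WT and 517.8 to 1644 in *nkd2*.

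The *nkd2* transcript was nearly absent from the mutant. Its level was 54.2, 59.1, 59.3, and 84.5 CPM in the 4 WT libraries and 0.139, 0.138, 0.284, and 0.386 CPM in the 4 *nkd2* libraries, or 2227 to 4251 counts against 6 to 20 counts. All 8 libraries thus matched their labels. The duplicate gene *nkd1* was at 119, 112, 101, and 148 CPM in WT and at 128, 180, 141, and 130 CPM in *nkd2*, so the groups overlapped. Its log2FC of 0.27 ± 0.16 (SE) had an adjusted P of 0.246 and an exact permutation P of 0.143 (two-sided, 4 libraries against 4). In the *o2* background *nkd1* was lower on the loss of *nkd2*, at 391 to 408 CPM in *o2* and 168 to 214 CPM in *nkd2 o2*. That log2FC was -1.05 (adjusted P = 3.77e-05), and it differed from the effect in WT by -1.32 (adjusted P = 1.41e-04 for the interaction). In *nkd2* against WT, the log2FC of *nkd1* was -0.02 at 12 DAP (adjusted P = 0.943) and 0.55 at 16 DAP (adjusted P = 0.00803).

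The *o2* transcript was higher in *nkd2*. It was at 20.9, 19.3, 20.7, and 37.4 CPM in WT and at 62.4, 109, 106, and 99.7 CPM in *nkd2*, with means of 24.6 ± 8.595 and 94.3 ± 21.6 (SD, n = 4). Every mutant library lay above every WT library. The log2FC was 1.94 ± 0.32 (SE; adjusted P = 3.74e-04), and the exact permutation P was 0.029, the smallest that 4 against 4 can give. It stayed between 1.84 and 2.22 and was called under all 13 alternatives tried. The level was 111 to 145 CPM in *nkd1* and 28.7 to 78.7 CPM in *nkd1 nkd2*, so the loss of *nkd2* from the *nkd1* mutant went with a lower level, a log2FC of -1.26 (adjusted P = 0.00606). The effect of *nkd2* thus differed between the *nkd1* and *Nkd1* backgrounds by -3.20 on the log2 scale (adjusted P = 2.13e-05 for the interaction). The difference between *nkd2* and *nkd1* libraries was -0.35 (adjusted P = 0.589). At 12 DAP, the mean *o2* level was 642 ± 77.7 CPM in WT against 529 ± 175 CPM in *nkd2* (SD, n = 4), a log2FC of -0.28 (adjusted P = 0.467), and the effect at 12 DAP differed from that at 8 DAP by -2.25 (adjusted P = 4.61e-04).

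**Figure D1:**
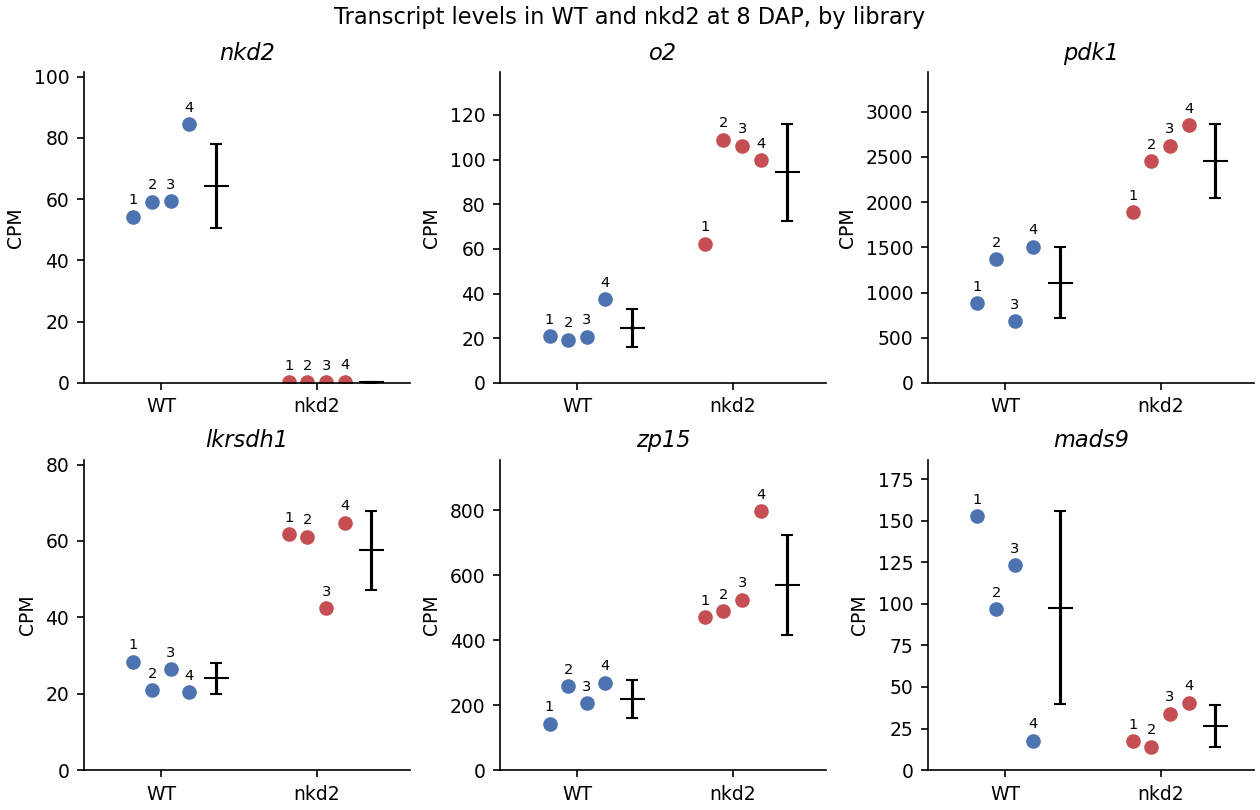
CPM on linear axes of *nkd2*, *o2*, *pdk1*, *lkrsdh1*, *zp15*, and *mads9* in the 4 WT (blue) and 4 *nkd2* (red) libraries at 8 DAP, with 1 numbered point per library and the group mean ± SD in black. The *nkd2* points of *o2* (62.4 to 109 CPM) all sit above the WT points (19.3 to 37.4 CPM), whereas those of *mads9* overlap WT replicate 4 (17.6 CPM).

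Across all genes, 182 were higher in *nkd2* (0.715% of those tested) and 1109 were lower (4.35%). At an adjusted P under 0.05 without the limit on fold change, 1955 were higher (7.68%) and 2332 lower (9.16%), and the median log2FC over all genes tested was -0.04. The higher DEGs were low in WT, at a median of 0.540 CPM against 2.56 CPM in *nkd2*, and 47 of them had at most 3 counts in every WT library. The lower DEGs were at a median of 3.45 CPM in WT and 0.794 CPM in *nkd2*, and 114 had at most 3 counts in every *nkd2* library. The 4 *nkd2* values lay wholly above the 4 WT values for 125 of the 182 higher DEGs, and wholly below them for 411 of the 1109 lower DEGs. Over all genes tested, such a lack of overlap was found for 6.31% in the higher and 6.02% in the lower direction. The lower DEGs thus included many genes whose groups overlapped, and their CV among WT libraries had a median of 57.2%, against 18.8% over all genes tested.

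The count of lower DEGs changed with single libraries. It was 350 without WT replicate 1, 490 without *nkd2* replicate 2, 595 without WT replicate 3, and 1921 without WT replicate 4, and that of higher DEGs was 121 to 247 over the same omissions. In all 8 fits that left out a library, 88 of the higher DEGs (48.4%) and 269 of the lower DEGs (24.3%) were called in the same direction. A fit of only the 8 libraries compared, in place of all 32 at 8 DAP, called 63 higher and 88 lower DEGs. These library values moved with the lower DEGs, and their part in the result was not tested.

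The libraries were therefore set side by side over the DEGs, as a description, because these genes were chosen on the same libraries. Over the lower DEGs, the mean difference in log2 CPM from the WT mean was 0.794, -0.0291, 0.446, and -1.21 in the 4 WT libraries and -1.79, -2.54, -1.76, and -1.71 in the 4 *nkd2* libraries. WT replicate 4 thus lay between the other WT libraries and the mutant. The 24 libraries of the other genotypes ranged from -1.93 to -0.345 over the same genes, below 3 of the 4 WT libraries. Over the higher DEGs, WT lay at -0.0774 to 0.108, *nkd2* at 2.20 to 2.64, and the other genotypes at 0.471 to 1.87. Over the lower set the other mutant genotypes thus lay on the *nkd2* side of 3 of the 4 WT libraries.

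**Figure D2:**
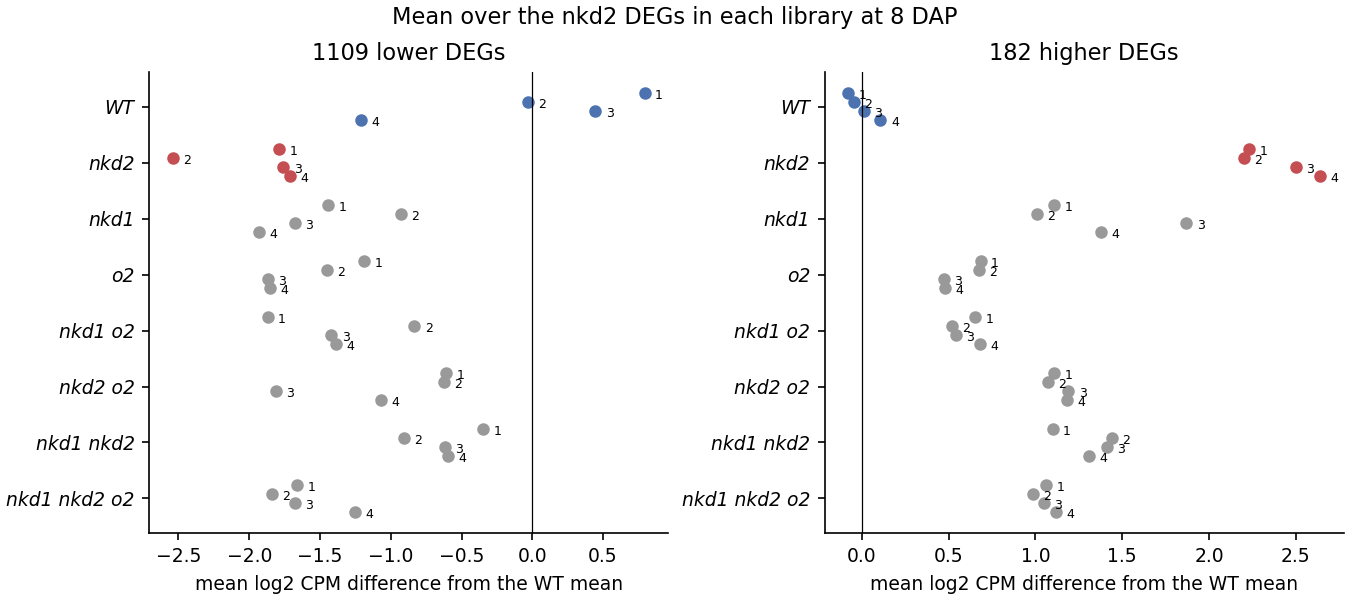
Mean difference in log2 CPM from the WT mean (x axis) over the 1109 lower DEGs (left) and the 182 higher DEGs (right), with 1 numbered point for each of the 32 libraries at 8 DAP, by genotype. WT replicate 4 (-1.21 over the lower DEGs) sits apart from the other WT libraries (-0.0291 to 0.794).

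Several genes of storage metabolism rose in *nkd2*. The starch and sucrose list had 6 genes tested, of which 4 were higher and 1 was lower at an adjusted P under 0.05, against 7.68% higher and 9.16% lower over all genes tested, with a median log2FC of 0.48. Its higher genes were *pdk1* and *pdk2*, which encode pyruvate orthophosphate dikinase, *ss5*, a starch synthase, and *sbe3*, a starch branching enzyme. *pdk1* was at 880, 1366, 682, and 1507 CPM in WT and 1891, 2452, 2625, and 2851 CPM in *nkd2*, with no overlap. Its log2FC was 1.15 ± 0.21 (SE; adjusted P = 6.08e-04). The values of *pdk2* overlapped by 1 library in each group, from 1982 to 3872 CPM in WT and 3689 to 6165 CPM in *nkd2* (log2FC 0.85, adjusted P = 0.00950). *ss5* and *sbe3* rose less, by log2FC of 0.57 (adjusted P = 0.00659) and 0.39 (adjusted P = 0.00857). The fallen member was *incw4*, a cell wall invertase, with a log2FC of -1.54 (adjusted P = 0.0400). *incw4* was at 7.79, 4.62, 8.09, and 0.795 CPM in WT and 0.851 to 3.22 CPM in *nkd2*, so WT replicate 4 was below all mutant libraries. The call of *incw4* was lost under 9 of 13 alternatives.

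Single genes of other lists also rose. *lkrsdh1*, the bifunctional enzyme of lysine breakdown, was at 28.3, 20.9, 26.5, and 20.3 CPM in WT and 61.8, 61.1, 42.3, and 64.8 CPM in *nkd2*. Its log2FC was 1.26 ± 0.27 (SE; adjusted P = 0.00258), with no overlap, and it was called under all 13 alternatives. The G-box binding factor *gbf1* was at 12.9 to 20.1 CPM in WT and 23.5 to 32.8 CPM in *nkd2* (log2FC 0.72, adjusted P = 0.0205), and it was the only called gene of 3 storage regulators tested beside *o2*. *sacd5*, a stearoyl-ACP desaturase of fatty acid synthesis, was at 32 to 37.9 CPM in WT and 41.8 to 62.4 CPM in *nkd2* (log2FC 0.60, adjusted P = 3.81e-04), and it was the only called gene of 5 in the lipid list. Aquaporin TIP3.1 (Zm00001d048520), a water channel of storage vacuoles, had a log2FC of 0.91 (adjusted P = 0.0162). The transport list also held *st4.1*, a sulfate transporter, which fell by 0.73 on the log2 scale (adjusted P = 0.0132), with WT replicate 4 inside the *nkd2* range. Of the 12 transport genes tested, 2 were higher and 1 lower. Over all genes tested, 7.68% were higher and 9.16% lower at an adjusted P under 0.05.

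The zein genes, which encode the main storage proteins of the kernel, had higher values in *nkd2*, but the groups overlapped for all but 1 of them. All 16 zein genes tested had a log2FC above 0, with a median of 2.87, and 1 of the 16 was called, against 7.68% higher over all genes tested. That gene, *az22z5* of the 22-kD α-zeins, was at 0, 0, 0.0266, and 0 CPM in WT and at 0, 15.8, 0.0709, and 9.75 CPM in *nkd2* (adjusted P = 0.00864), and DESeq2 called none of the 16. At an unadjusted P under 0.05, 6 were higher with edgeR and 3 with DESeq2. The same *nkd2* replicates 2 and 4 were high for *az22z3*, at 225 and 193 CPM against 4.29 and 2.07 CPM in replicates 1 and 3. WT replicate 3 had the highest WT level of *az22z3*, 31.4 CPM, above the lower pair of mutant libraries. The α-zein genes are near-identical copies, so the share of reads given to each is uncertain. The 15-kD β-zein gene *zp15*, picked here after its values were seen, was at 143, 259, 206, and 268 CPM in WT and at 470, 489, 524, and 797 CPM in *nkd2*. Its groups did not overlap, and its log2FC of 1.38 had an adjusted P of 0.131. Summed over the zeins, the level was 152.7, 276.1, 433.4, and 279.8 CPM in WT and 517.8, 1605, 553.0, and 1644 CPM in *nkd2*, with no overlap. In *nkd2* replicates 1 and 3, *zp15* alone gave 470 and 524 CPM of these sums. The lack of overlap thus rests on *zp15* and does not describe the other zeins. In pooled tissue, a change in the number of cells that express a gene and a change in RNA per cell cannot be told apart.

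Beyond the lists, the largest rises among annotated DEGs without overlap were spread over functions. Zm00001d014091, which encodes an F-box protein, was at 1.131, 1.86, 0.985, and 1.09 CPM in WT and 8.39, 7.27, 7.51, and 5.65 CPM in *nkd2*, a log2FC of 2.51 ± 0.40 (SE; adjusted P = 1.86e-04). Its level in all 4 WT libraries was thus below 1.87 CPM, and its spread within *nkd2* was small. *scl1*, a scarecrow-like gene of the GRAS family, was at 2.98 to 7.69 CPM in WT and 12.10 to 32.4 CPM in *nkd2* (log2FC 1.67, adjusted P = 0.00333). Zm00001d029371, a probable trehalose-phosphate phosphatase, had a log2FC of 1.74 (adjusted P = 0.00771). Zm00001d002372, an ECT-type RNA-binding protein by its description, had a log2FC of 1.32 (adjusted P = 0.00116). Zm00001d003277, described as a stachyose synthase, had a log2FC of 1.08 (adjusted P = 0.00995). Zm00001d031300, a probable galactinol-sucrose galactosyltransferase of the same sugar family, went the other way, at 13.2 to 31.6 CPM in WT and 8.56 to 11.8 CPM in *nkd2* (log2FC -1.01, adjusted P = 0.0319).

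**Figure D3:**
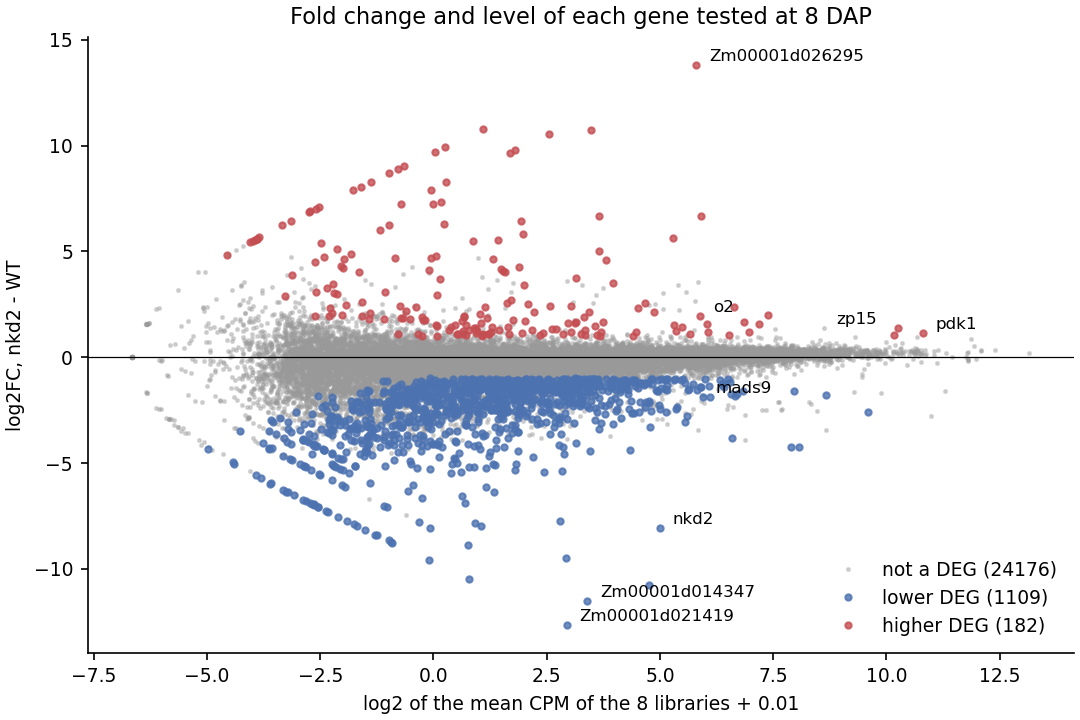
Fitted log2FC of *nkd2* over WT at 8 DAP for each of the 25467 genes tested (y axis) by log2 of the mean CPM of the 8 libraries plus 0.01 (x axis), with the 182 higher DEGs in red, the 1109 lower DEGs in blue, and other genes in grey. *o2* (1.94) and *pdk1* (1.15) sit above 0 and *mads9* (-1.88) below it, and *zp15* (1.38) was not a DEG.

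Several genes of the cell wall fell in *nkd2*. Of 16 cell wall genes tested, 8 were lower and 1 was higher at an adjusted P under 0.05, against 9.16% lower and 7.68% higher over all genes tested, and the median log2FC was -0.49, against -0.04. For 4 of the 16, every *nkd2* value lay below every WT value, against 6.02% over all genes tested. Zm00001d006623, polygalacturonase inhibitor 1, had the largest fall of those named. It was at 14.8, 5.21, 17.6, and 1.95 CPM in WT and at 2.65, 1.10, 1.72, and 1.74 CPM in *nkd2* (log2FC -2.45 ± 0.60 (SE), adjusted P = 0.00760). WT replicate 4 lay inside the *nkd2* range. Zm00001d004448, a probable pectate lyase, was at 3.98 to 9.77 CPM in WT and 1.75 to 3.87 CPM in *nkd2* (log2FC -1.15, adjusted P = 0.0143). Zm00001d004545, an IRX9H xylan xylosyltransferase, had a log2FC of -1.24 (adjusted P = 0.00896), and Zm00001d002342, a QRT3 polygalacturonase, one of -0.57 (adjusted P = 0.0209). For both, WT replicate 4 again lay inside the *nkd2* range. The higher member was Zm00001d005517, described as a cellulose synthase subunit, with a log2FC of 1.003 (adjusted P = 0.0132). Without WT replicate 3 the count of called cell wall genes was 3, without WT replicate 1 it was 4, and with only the 8 libraries it was 1, in place of 9.

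Peroxidase genes were counted together with genes of the phenylpropanoid pathway, which supplies lignin and wall-bound phenolics. Genes of this joint list were lower in *nkd2* or did not pass the test. Of 10 tested, 4 were lower at an adjusted P under 0.05 (9.16% of all genes), with a median log2FC of -0.48, and 0 were higher at an adjusted or unadjusted P under 0.05 with edgeR or DESeq2. Zm00001d009858, a cinnamate 4-hydroxylase by its description, was at 15.3, 12.09, 19.3, and 12.11 CPM in WT and at 10.3, 10.3, 8.17, and 6.17 CPM in *nkd2* (log2FC -0.75, adjusted P = 0.00895). *hct5*, a hydroxycinnamoyltransferase, had a log2FC of -0.48 (adjusted P = 0.00409), with WT replicate 4 inside the *nkd2* range. Zm00001d003381, described as peroxidase 65, had a log2FC of -0.97 (adjusted P = 0.00636). Of 9 auxin genes tested, 2 were lower, against the same 9.16%, and 0 were higher at an adjusted or unadjusted P under 0.05 with edgeR or DESeq2. *arf1*, an auxin response factor, was at 76.5, 44.5, 52.2, and 20.2 CPM in WT and at 21.2, 24.9, 26.5, and 25.9 CPM in *nkd2* (log2FC -0.97, adjusted P = 0.01002). Zm00001d007357, an AFB3 auxin receptor by its description, was at 53.0, 28.4, 43, and 10.2 CPM in WT and at 18.2, 9.01, 14.3, and 16.5 CPM in *nkd2* (log2FC -1.22, adjusted P = 0.0119). In both auxin genes, WT replicate 4 was at the level of the mutant, and neither was called without WT replicate 1.

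Single regulatory genes were called in both directions. The gene with the symbol *mads9*, whose description in the gene table is an NAD(P)-binding protein, was at 153, 96.9, 123, and 17.6 CPM in WT and at 17.4, 14.2, 33.8, and 40.6 CPM in *nkd2* (log2FC -1.88, adjusted P = 0.0202). WT replicate 4 lay inside the mutant range, and the call of *mads9* was lost under 5 of 13 alternatives. *abi39*, a B3 repressor of the VAL type, had a log2FC of -1.35 (adjusted P = 0.0102), and *wrky50* one of -0.79 (adjusted P = 0.0135). For both, WT replicate 4 lay inside the mutant range. *abi39* and *wrky50* were the only called genes among 5 of the gibberellin and abscisic acid list and 8 of the defence list. Over all genes tested, 7.68% were higher and 9.16% lower, so these counts do not mark the lists. Of 24 AP2/ERF, MYB, bHLH, and NAC factors tested, 2 were higher and 2 lower, a share near that over all genes tested (7.68% higher and 9.16% lower), with a median log2FC of -0.32. Of the network hub genes that the study named for 8 DAP, 5 could be matched by symbol and were tested. Of these, 1 was called higher, against 7.68% over all genes tested. It was *bhlh156* (log2FC 0.91, adjusted P = 0.0372), which was lost under 6 of 13 alternatives. *arf29*, *bhlh96*, *grftf3*, and *platz2* were not called, with log2FC of 0.66, 0.12, -0.01, and -0.04. On the loss of *nkd2* from *o2* and from *nkd1*, *platz2* rose by 0.83 (adjusted P = 5.84e-05) and 0.90 (adjusted P = 2.96e-05). These differed from its effect in WT by 0.87 and 0.94 (adjusted P = 0.00110 and 5.05e-04 for the interactions). *arf29* rose by 1.54 in *o2* (adjusted P = 0.00179), and *bhlh96* fell by 1.12 in *nkd1* (adjusted P = 0.0326).

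Genes of DNA replication and histones moved little. None of 14 DNA replication and histone genes tested passed an adjusted P under 0.05 with edgeR or with DESeq2, 1 was higher at an unadjusted P under 0.05 with either tool, and their median log2FC was 0.03. All 5 mitotic genes tested had a log2FC above 0, and 2 were higher at an adjusted P under 0.05, against 7.68% over all genes tested. These were the cyclin Zm00001d010404 (log2FC 0.65, adjusted P = 0.0126) and the kinesin *kcbp1* (0.36, adjusted P = 0.0316). Of 15 ribosomal protein genes, 2 were higher and 1 was lower, against 7.68% higher and 9.16% lower over all genes tested. The higher genes were Zm00001d009117 (L29, 0.63, adjusted P = 0.00652) and Zm00001d002395 (L7-2, 0.32, adjusted P = 0.0122). The lower gene was Zm00001d006196 (S31, -0.31, adjusted P = 0.00792). None of 9 heat shock genes was called with edgeR or DESeq2, with a median log2FC of 0.40, and 2 and 3 of them were higher at an unadjusted P under 0.05. The transfer layer marker *umi12* was at 54.9, 30.4, 48.1, and 10.04 CPM in WT and 19.5, 10.7, 14, and 23.6 CPM in *nkd2*, a log2FC of -1.08 with an adjusted P of 0.11. The anthocyanin enzyme gene *fht1* had a log2FC of -2.67 with an adjusted P of 0.0773. The embryo gene *esp1*, the only embryo marker matched, was at 0 to 0.165 CPM in WT and 0.620 to 1.10 CPM in *nkd2* (adjusted P = 0.00875). All these *esp1* levels were low, and the part of embryo tissue in the other results was not tested.

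Over all lists, 42 of 172 genes tested had an adjusted P under 0.05, against 4287 of 25467 over all genes. The lists were chosen with earlier results of these data known, so these counts describe the genes and do not test the lists. With only the 8 libraries compared, 4 of them passed, and without WT replicate 1, 19 did.

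Most mitochondrial genes had a log2FC above 0 in *nkd2*, and few of them passed the test. Of 43 organelle genes tested, 41 had a log2FC above 0, 5 were higher at an adjusted P under 0.05, against 7.68% over all genes tested, and the median log2FC was 0.65. None was lower at an adjusted or unadjusted P under 0.05 with edgeR or DESeq2, and 14 and 15 were higher at an unadjusted P under 0.05. The called genes were *nad4* (0.71), a subunit of respiratory complex I, the open reading frames *orf101-a* (0.75) and *orf99-d* (1.06), and the ribosomal RNA genes *rrn26* (0.66) and *rrn18* (0.65). The groups overlapped for *nad4*, *orf99-d*, and *rrn26*. *rrn18* was at 402, 223, 403, and 439 CPM in WT and at 694, 451, 454, and 709 CPM in *nkd2*. No overlap was found, but *nkd2* replicates 2 and 3 were close to the highest WT library. Mitochondrial genes took 0.0875% to 0.171% of the counted reads in WT and 0.159% to 0.279% in *nkd2*. The *nkd2* shares were 0.279% and 0.271% in replicates 1 and 4. In replicates 2 and 3 they were 0.159% and 0.165%, inside the WT range. The organelle genes of a library share their source, so they are not independent of each other.

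Some genes were present in one genotype and absent from the other. Zm00001d026295, with no annotation, had 1 read in 1 WT library and 0 in the other three, and was at 99.9, 142, 99.4, and 106 CPM in *nkd2* (adjusted P = 1.20e-22). It was at 110 to 127 CPM in *nkd2 o2* and 108 to 118 CPM in *nkd1 nkd2*. Zm00001d021910 had 0 counts in all 4 WT libraries and was at 3.46, 3.196, 4.68, and 5.78 CPM in *nkd2*. Zm00001d026295 and Zm00001d021910 thus followed the *nkd2* genotype across all groups at 8 DAP. By a rule set after the data were seen, at least 1 CPM in every library of one group and at most 3 counts in every library of the other, 8 genes were present in *nkd2* only and 5 in WT only. Of the 8, 4 had the *nkd2* state in all 3 other genotypes with *nkd2* lost and the WT state in all 3 with normal *nkd2*. None of the 5 present in WT only did so.

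The largest falls after the filter on mean counts and overlap did not follow the *nkd2* genotype. Zm00001d014347 was at 27.6, 17.5, 23.24, and 16.0 CPM in WT and had 1 read in *nkd2* replicate 3 and 0 in the other three. It was at 15.1 to 21.6 CPM in *nkd2 o2* and 15.5 to 23.3 CPM in *nkd1 nkd2*, which also lack *nkd2*. Within *nkd2* at 12 DAP it was split between libraries, at 12.3, 16.92, 0.0277, and 0 CPM, and within *nkd1* at 8 DAP it was at 22.4, 18.1, 0.0824, and 8.14 CPM. Zm00001d021419 was at 18.02, 16.4, 13.4, and 13.5 CPM in WT and at 0 in all 4 *nkd2* libraries, but at 9.74 to 17.5 CPM in *nkd1 nkd2* and at 28.7, 21.3, 0, and 0 CPM in *nkd2* at 12 DAP. For these genes the ears of one genotype thus differed as much as the genotypes did, and their fitted log2FC depends on the prior count.

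The loss of *nkd2* was compared in 3 backgrounds at 8 DAP, WT, *o2*, and *nkd1*, that share no library. The *nkd1 o2* background was not compared here. In the *o2* background, *nkd2 o2* against *o2* gave 1226 higher (4.81%) and 422 lower DEGs (1.66%), and in the *nkd1* background, *nkd1 nkd2* against *nkd1* gave 658 higher (2.58%) and 369 lower DEGs (1.45%). The balance of directions was thus the reverse of that in the WT background. The 182 genes higher in *nkd2* than in WT had a median log2FC of 0.36 in the *o2* background, where 45 were higher and 14 lower DEGs, and of -0.33 in the *nkd1* background, where 16 were higher and 32 lower DEGs. The 1109 lower genes had medians of 0.67 and 0.80 in the *o2* and *nkd1* backgrounds, and 136 and 124 of them were higher DEGs there against 33 and 19 lower DEGs. In all, 78 DEGs of *nkd2* against WT were called in the same direction in the *o2* background and 150 in the opposite one, and in the *nkd1* background the numbers were 35 and 156.

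The interaction terms tested this difference itself. The effect of *nkd2* differed between the *o2* and *O2* backgrounds for 8193 genes (32.2%) and between the *nkd1* and *Nkd1* backgrounds for 7652 genes (30%) at an adjusted P under 0.05. These tests use the WT and *nkd2* libraries that chose the DEGs, so they are not independent of those calls. *lkrsdh1* rose by 1.26 in the WT background and had a log2FC of -0.07 in *o2* and -0.09 in *nkd1*, differences of -1.33 (adjusted P = 0.00895) and -1.35 (adjusted P = 0.00769). *pdk1* rose by 1.15 in the WT background and fell by 0.89 in the *nkd1* background (adjusted P = 0.00280), a difference of -2.04 (adjusted P = 1.83e-05). The F-box gene Zm00001d014091 went from a rise of 2.51 to a fall of 1.61 in the *nkd1* background (adjusted P = 0.00411), a difference of -4.12 (adjusted P = 1.075e-05). The polygalacturonase inhibitor gene Zm00001d006623 went from a fall of 2.45 to a log2FC of 1.35 in *o2* (adjusted P = 0.09995) and a rise of 1.70 in *nkd1* (adjusted P = 0.0454).

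A small set of genes was called in the same direction in the 3 backgrounds compared. At 8 DAP, these were 23 genes, 13 higher and 10 lower, *nkd2* among the latter. Their changes were not all of one size. The log2FC in the *o2* background differed from that in WT by 1.58 for *nkd2* (adjusted P = 0.0185), 2.55 for Zm00001d026303 (adjusted P = 0.0185), and -1.69 for Zm00001d048839 (adjusted P = 0.0439), and that in the *nkd1* background differed by 1.27 for Zm00001d026293 (adjusted P = 0.0316). Of the 23, 16 were DEGs in the same direction at 12 and 16 DAP too. Zm00001d002458, taken from this set after its values were seen, was at 12.8 to 14.3 CPM in WT and 0.0354 to 0.0964 CPM in *nkd2*, at 9.11 to 11.1 CPM in *o2* and 0.0575 to 0.102 CPM in *nkd2 o2*, and at 13.3 to 17.96 CPM in *nkd1* and 0.0478 to 0.201 CPM in *nkd1 nkd2*. Zm00001d015393, also taken after its values were seen, was at 0.266 to 1.54 CPM in WT and 17.5 to 30.5 CPM in *nkd2*, with 16.6 to 20.1 CPM in *nkd2 o2* and 12.8 to 17.3 CPM in *nkd1 nkd2*. Of the 23 genes, 10 lay within 200 identifier numbers of *nkd2* (Zm00001d026113), which stand in for gene order here, and 13 lay farther away. The 10 include *nkd2* itself and Zm00001d026295. Among the 219 genes tested within that window, 11 were higher DEGs (5.02%, against 0.715% over all genes) and 21, *nkd2* included, were lower DEGs (9.59%, against 4.35%). Chromosome segments that came with the *nkd2-null* allele and the loss of NKD2 cannot be told apart in this design.

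**Figure D4:**
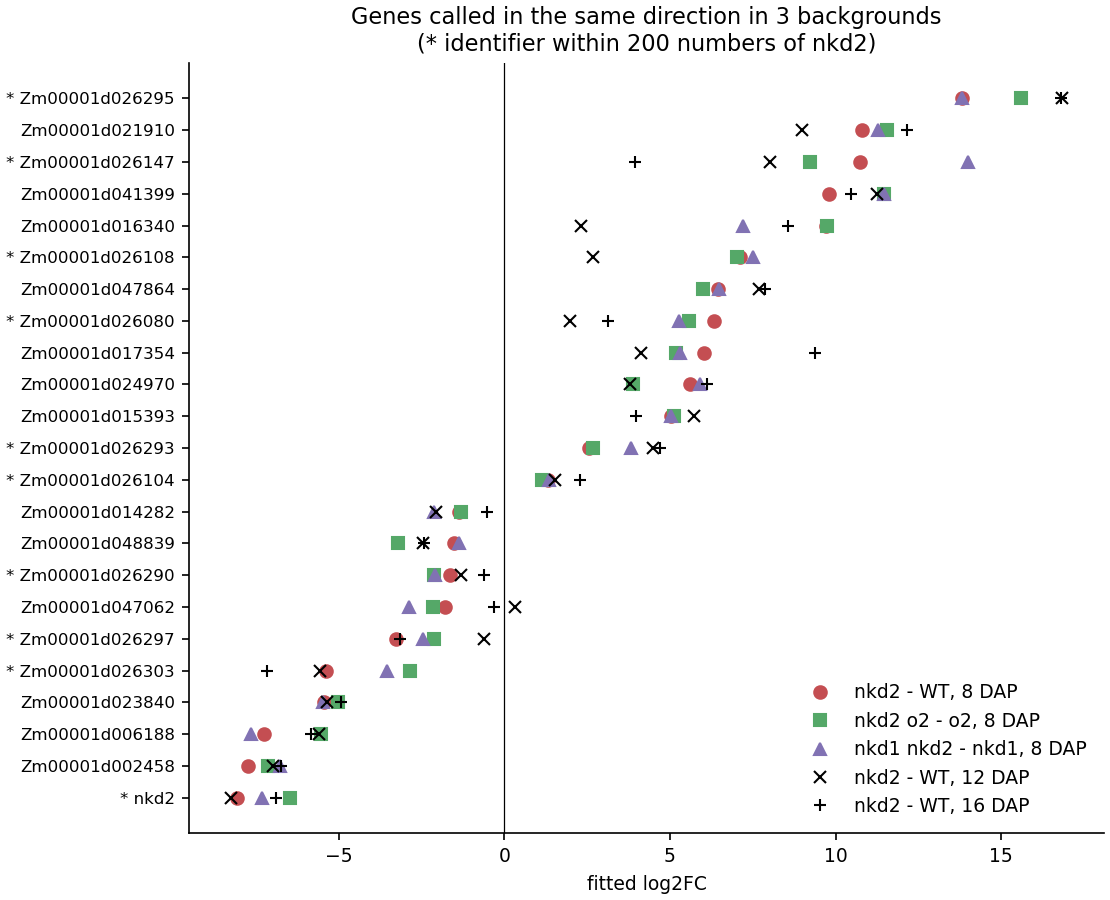
Fitted log2FC on the loss of *nkd2* for the 23 genes called in the same direction in the WT, *o2*, and *nkd1* backgrounds at 8 DAP (filled symbols), and in *nkd2* against WT at 12 and 16 DAP (crosses), with an asterisk for the 10 genes, *nkd2* itself included, within 200 identifier numbers of *nkd2*. At 8 DAP 13 genes sit above 0 and 10 below 0 in every background, and fitted values of genes without counts in one group depend on the prior count.

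The direct comparison of *nkd2* with *nkd1*, which uses no WT library, gave 92 genes higher (0.361%) and 226 lower (0.887%) in *nkd2*. Of the genes described above, *pdk1* had a log2FC of -0.45 (adjusted P = 0.208), *lkrsdh1* of -0.04 (adjusted P = 0.959), Zm00001d006623 of 0.02 (adjusted P = 0.991), and *mads9* of 0.22 (adjusted P = 0.882). A difference between the single mutants was not detected for these 4 genes, which does not show that they were equal. Others did differ, with a log2FC of 0.58 for *kcbp1* (adjusted P = 0.00283), -0.65 for *platz2* (adjusted P = 0.00327), and -0.33 for Zm00001d006196 (adjusted P = 0.00738).

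At later timepoints, *nkd2* and WT libraries gave more balanced counts. At 12 DAP, 269 genes were higher (1.10%) and 283 lower (1.15%) of 24504 tested, and at 16 DAP, 378 were higher (1.56%) and 662 lower (2.73%) of 24239 tested. Of the 173 higher DEGs tested at 12 DAP, 54 were higher DEGs and 1 was a lower DEG, with a median log2FC of 0.91, and at 16 DAP 63 of 169 were higher and 6 lower, with a median of 0.83. Of the 924 lower DEGs tested at 12 DAP, 68 were lower and 7 higher DEGs, with a median of -0.36, and at 16 DAP 102 of 914 were lower and 16 higher, with a median of -0.16. A test of the effect at 12 DAP against that at 8 DAP passed for 1692 of 26568 genes (6.37%). At 12 DAP, the mean *pdk1* level was 4850 ± 245 CPM in WT against 5147 ± 934 CPM in *nkd2* (SD, n = 4), and its effect was lower than at 8 DAP by 1.09 (log2 difference -1.09, adjusted P = 0.00395).

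The *nkd2* libraries lay slightly farther along the change from 8 to 12 DAP than WT. This axis was the mean difference in log2 CPM between 12 and 8 DAP over the 6 other mutant genotypes, on which 0 is their mean at 8 DAP and 1 their mean at 12 DAP, so neither WT nor *nkd2* libraries set it. The WT libraries were at -0.140, -0.152, -0.147, and -0.0678 and the *nkd2* libraries at -0.0635, 0.0757, -0.0225, and 0.0438. The groups did not overlap, and WT replicate 4 and *nkd2* replicate 1 nearly met. The means were -0.127 ± 0.0395 and 0.00839 ± 0.0630 (SD, n = 4), a difference of 0.135 with an exact two-sided permutation P of 0.029, the smallest that 4 against 4 can give. Among the genotypes that set the axis, *nkd1* at 0.0724 to 0.171 and *o2* at 0.0801 to 0.129 lay farther along than WT at 8 DAP. Of those that also lack *nkd2*, *nkd1 nkd2* lay at -0.131 to -0.0629, which overlapped WT, and *nkd2 o2* at -0.0609 to 0.104. *nkd1 nkd2* thus lay wholly below *nkd1*, and *nkd2 o2* reached lower than *o2* and overlapped it. In these backgrounds the loss of *nkd2* did not go with a position farther along, and these differences were not tested. With a prior count of 0.5 the *nkd2* to WT difference was 0.143 (exact permutation P = 0.0571), and over the 500 genes with the largest change it was 0.169 (exact permutation P = 0.0571). The higher DEGs of *nkd2* had a median change of 0.33 from 8 to 12 DAP in the 6 other genotypes, and the lower DEGs had -0.40, against -0.06 over all genes tested. A rise above 1 was found for 30.94% of the higher DEGs and 12.3% of the lower DEGs, against 8.45% over all genes tested. A fall below -1 was found for 10.5% and 29.4%, against 15.7% over all genes tested.

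**Figure D5:**
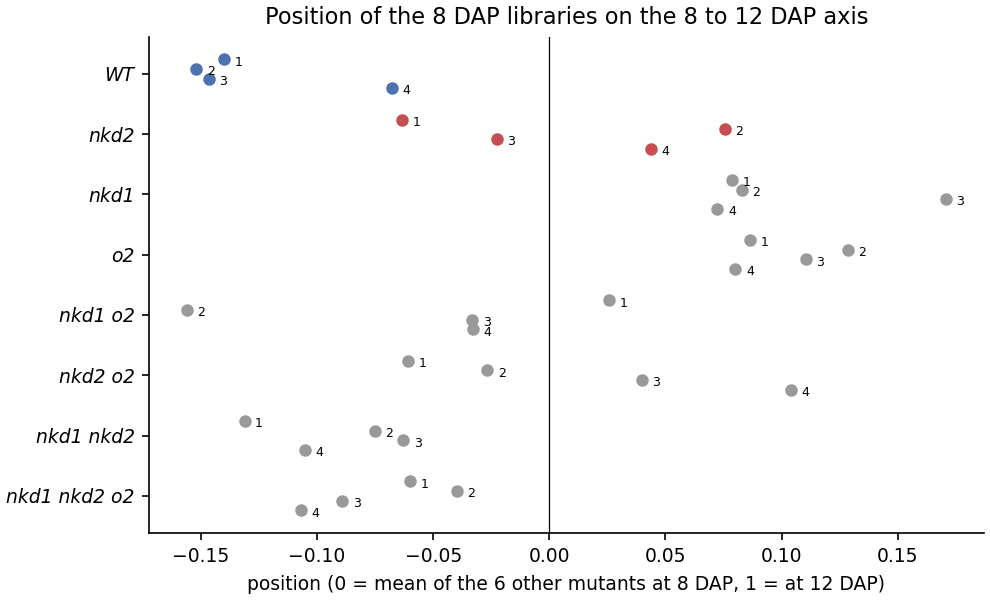
Position of the 32 libraries at 8 DAP, by genotype and replicate number, on the axis of change from 8 DAP (0, the mean of the 6 other mutant genotypes) to 12 DAP (1, their mean). The 4 WT libraries (-0.152 to -0.0678) sit below the 4 *nkd2* libraries (-0.0635 to 0.0757).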

How the data were processed

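Endosperm RNA of 96 libraries was sequenced as 150-base read pairs after TruSeq preparation. Per the submitters' processing notes, the tools were HISAT2 2.1.0, SAMtools 1.9, StringTie 1.3.6, and HTSeq 0.11.1, with B73 RefGen_v4 as the genome. The authors deposited raw counts per gene, one table per library, without normalization. The counting mode, strand setting, and annotation release are not given in the sources used here, so reads of overlapping or near-identical genes are uncertain. Lines of the tables that name no gene held 13.6% to 15.6% of all counts in the 8 libraries compared and were left out. Depth is the reads counted on genes.

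The 32 libraries at 8 DAP were fitted together with edgeR 4.0.16 in R 4.3.3 (TMM, filterByExpr, quasi-likelihood test, Benjamini-Hochberg), because the study compared each mutant with WT per timepoint with the same DEG limits, using DESeq2. Libraries at 12 and 16 DAP had fits of their own, and 64 libraries were used for the test of 12 against 8 DAP. SE is the absolute log2FC over the square root of F. Distances and axis positions used log2 CPM with a prior count of 2, with numpy 2.4.6, scipy 1.17.1, and pandas 2.3.3 in Python 3.11.15. The 13 alternatives were no low-count filter, DESeq2 size factors, DESeq2 1.42.0, a replicate block, only the 8 libraries, and each library left out. The edgeR and DESeq2 fits at 8 DAP were tested on simulated counts for *nkd2* against WT, *nkd2 o2* against *o2*, and their difference. The other contrasts and timepoints, the replicate block, and the axis were not tested in this way.

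Gene symbols and descriptions came from the study's gene table (881 genes, 822 tested), and organelle symbols from RefSeq locus tags. The members and lists were chosen with earlier results of these data known. Genes were named by rule: the 3 TF genes, hub and IDD genes, the largest changes without overlap at a mean of at least 100 counts (15 annotated each way and 2 each way regardless of annotation), and up to 4 called genes each way per list. Promoter sequences were not used here.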

Additional observations from a re-analysis of the deposited data

Results flagged for a closer look

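With 4 libraries in a group, a library was picked out where its gap to the nearest other took most of the range of the group, which chance gives in about 1 in 20 groups. The gap share was 0.915 for *o2*, where WT replicate 4 was high, 0.833 for *nkd2*, where the same library was high, and 0.834 for Zm00001d014091, where WT replicate 2 was high. It was 0.944 for *scl1*, where WT replicate 3 was low, 0.835 for *lkrsdh1*, where *nkd2* replicate 3 was low, and 0.869 for Zm00001d004448, where *nkd2* replicate 2 was low. For genes at or near 0 in a group, single reads gave a share of 1 in Zm00001d026295 and *az22z5* (WT) and Zm00001d014347 (*nkd2*), and Zm00001d026295 had 0.844 within *nkd2*. On the axis of change from 8 to 12 DAP, WT replicate 4 had 0.859. In the distance from the other libraries, *nkd2* replicate 2 had 0.888, and in the mean over the lower DEGs it had 0.898.

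The effect of *nkd2* differed between the *o2* and *O2* backgrounds (interaction, adjusted P under 0.05 by edgeR). The genes were chosen on 8 of the 16 libraries in each of these tests. The difference in log2FC, *o2* minus *O2* background, was 1.58 for *nkd2*, -1.99 for Zm00001d014091, -1.91 for Zm00001d002372, -1.33 for *lkrsdh1*, -1.56 for Zm00001d003277, and -1.22 for Zm00001d005517. It was 2.34 for Zm00001d004448, 3.03 for *mads9*, 1.97 for Zm00001d007357, 3.801 for Zm00001d006623, 1.37 for *abi39*, and 2.15 for *incw4*. For Zm00001d021419 (14.91) and Zm00001d014347 (11.19), which had no more than 1 read in any *nkd2* library, the fitted values depend on the prior count.

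Between the *nkd1* and *Nkd1* backgrounds, the difference was -3.20 for *o2*, -4.12 for Zm00001d014091, -1.83 for Zm00001d029371, -1.95 for Zm00001d002372, -1.35 for *lkrsdh1*, -2.04 for *pdk1*, and -1.67 for Zm00001d005517. It was 2.84 for Zm00001d004448, 1.68 for Zm00001d031300, 3.05 for *mads9*, 2.05 for Zm00001d007357, 4.15 for Zm00001d006623, 1.28 for Zm00001d004545, and 2.73 for *incw4*, and 13.13 for Zm00001d021419 and 12.19 for Zm00001d014347.

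Between 12 and 8 DAP, the difference was -2.25 for *o2*, -1.62 for Zm00001d014091, -1.31 for Zm00001d002372, -1.09 for *pdk1*, and -8.58 for *az22z5*. It was 1.73 for Zm00001d031300, 2.06 for *abi39*, and 1.78 for *incw4*, and 12.18 for Zm00001d021419 and 9.23 for Zm00001d014347.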

How the results depend on the processing

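No called result reversed its direction under any alternative run. The uncalled *bhlh96* (log2FC -0.20 to 0.33), *platz2* (-0.12 to 0.07), *grftf3* (-0.12 to 0.05), and *hon101* (-0.03 to 0.13) changed sign. With only the 8 libraries compared, the DEGs were 63 higher and 88 lower, and 4 genes of the lists were called in place of 42. With each library left out in turn, the lower DEGs were 350 to 1921, the higher DEGs 121 to 247, and the called list genes 19 to 53. Over the same omissions, *nkd1 nkd2* against *nkd1* gave 430 to 876 higher DEGs, *nkd2* against *nkd1* gave 58 to 118, and 790 to 3001 genes differed in effect between 12 and 8 DAP. The axis difference was 0.143 with a prior count of 0.5 and 0.169 over the top 500 genes, both at an exact permutation P of 0.0571, and 0.113 to 0.159 with a library left out, where 3 against 4 cannot go below 0.0571. DESeq2 called 215 higher and 1397 lower DEGs. The causes of these changes were not tested, beyond the fewer libraries in each fit. Not all of the 59 named genes other than the 3 TF genes were called in the main fit. Of the calls among them, 33 were lost with only the 8 libraries and 19 without WT replicate 1. Without *nkd2* replicate 2, 13 were lost, and without WT replicate 3, 12. The genes *fht1* and *umi12* became called without WT replicate 4. Same-numbered libraries did not deviate together (correlations of 0.133, -0.0803, 0.0981, and -0.311 over genes), so the numbers do not pair the libraries, and a fit with the replicate block gave 166 higher and 897 lower DEGs and lost 1 named call, *incw4*. Depth limits the genes of few reads, and the spread between ears limits the rest.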
